A study of Mus musculus with 6 samples.

Results

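WNT ligands, their receptors and secreted antagonists, and the β-catenin effectors were described in 2 populations of mouse spermatogonia. Members were chosen by gene symbol: every measured gene whose symbol begins with Wnt, Fzd, Sfrp or Dkk and a number, with Lrp5, Lrp6, Ror1, Ror2, Ryk, Ctnnb1, Axin1, Axin2, Apc, Lef1, Tcf7, Tcf7l1, Tcf7l2 and Shisa6. The rule found 52 of the 24973 genes on the arrays, each measured once. By role they are 19 ligands, 8 secreted antagonists, 10 Frizzled receptors, 5 co-receptors, 4 genes of β-catenin and its destruction complex, 4 TCF/LEF factors and Shisa6. The last, Fzd10os, is an antisense transcript that shares the Fzd10 name and encodes no receptor.

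The undifferentiated spermatogonia were β-2M-SPα-6+c-kit- cells, and the differentiating spermatogonia they were set against were β-2M-SPα-6+c-kit+ cells. They are named below by c-kit alone. Both came from testes of FVB/N mice of 2 to 3 months, by magnetic enrichment for α-6 integrin, Hoechst staining for the side population (SP, cells that pump out the dye) and sorting for absent β-2 microglobulin and for c-kit, the stem cell factor receptor. Each population had 3 samples of 10000 cells, with 1 mouse per sample, and 500 pg of RNA per sample was amplified for an Affymetrix Mouse Gene 2.0 ST array. Neither the labels nor the methods say whether a mouse gave both populations, and the samples were tested as unpaired. All values are log2 expression after robust multi-array average (RMA) normalization, which holds no detection call. Each gene has its own probes, so the place of a gene among all genes on the arrays is only a rough guide to its level, and no test compares levels of different genes. A fold change is c-kit- minus c-kit+ on the log2 scale, and a call means an adjusted p under 0.05 from limma over all genes. Array number (n = 3 each) limits the precision.

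WNT proteins are lipid-modified secreted signals. They bind Frizzled receptors, and with the co-receptors LRP5 or LRP6 they halt a complex built on AXIN and APC that otherwise marks β-catenin for degradation. Stabilized β-catenin then joins TCF/LEF factors on DNA. Without it these factors, TCF7L1 above all, act as repressors. SFRP proteins bind WNTs outside the cell, and DKK1 and its closest relatives block LRP5 and LRP6. In the mouse testis, WNT6 is known as a Sertoli cell ligand, Axin2 as a β-catenin target that is read out as pathway activity, and SHISA6 as an inhibitor of WNT signalling within undifferentiated spermatogonia.

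Kit, the gene of the sort marker, followed the labels, at 6.15 ± 0.17 in c-kit- cells against 9.79 ± 0.09 in c-kit+ cells (SD, n = 3 each). All 10 markers of undifferentiated spermatogonia were higher and 7 of 8 of differentiating spermatogonia were lower in c-kit- cells. The latter list holds Kit itself, and the paper already names most genes of the former in the profile of these c-kit- cells. These counts are therefore no independent check of the sort. As list means, markers of other testicular cells moved less. Single genes could move more, as the leukocyte gene Cd74 did (log2 fold change -1.79) beside the spermatogonial marker Sall4 (1.02). As means of log2 values per array, the endothelial list (4 of 8 higher) lay between 5.24 and 5.34 in c-kit- and between 4.80 and 4.99 in c-kit+ cells, and the peritubular myoid list (3 of 8 lower) between 5.40 and 5.63 against 5.86 to 6.05. The Sertoli list (1 of 12 higher) lay between 6.19 and 6.33 against 6.16 to 6.39, and the Leydig list (1 of 7 measured lower) between 3.78 and 3.86 against 3.95 to 4.32. The spermatid list (0 of 8 called) lay between 9.83 and 10.40 in c-kit- cells and between 9.98 and 10.19 in c-kit+ cells. These spermatid means were above the upper quartile of gene levels (7.15) in both populations. The leukocyte list (2 of 11 measured lower) lay between 4.95 and 5.30 in c-kit- cells, but at 6.45, 6.05 and 5.16 in c-kit+ replicates 1, 2 and 3. Results are therefore also given with c-kit+ replicates 1 and 2 both left out. That leaves 1 c-kit+ array, which is assumed to vary like the c-kit- arrays, so the p-values of this setting hold no spread of the c-kit+ group and a lost call there does not by itself show a smaller difference. The part of these cells in the results below was not tested.

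Of the 52 members, 10 passed the test. Higher in c-kit- cells were the TCF/LEF factors Tcf7l2 and Tcf7l1 and the secreted antagonists Sfrp2, Sfrp1 and Dkk3. Lower were the receptors Fzd9 and Fzd4, the co-receptor Lrp5 and the AXIN scaffold genes Axin1 and Axin2. No ligand was called. The members called are 19.2%, beside 18.1% of all genes on the arrays, a share near the background that is not a result about the members as a set. In each direction 5 members were called, where 9.33% of all genes were called higher and 8.79% lower. With other scalings of the arrays this split of 5 higher and 5 lower became 7 and 5 (quantile normalization once more), 7 and 3 (equal medians) and 8 and 3 (cyclic loess). The median log2 fold change was -0.09 over members and -0.04 over all genes. The c-kit- and c-kit+ arrays did not overlap for 25 members, or 48.1%, beside 35.1% of all genes, with c-kit- cells above in 14 and below in 11. All 10 called members were among the 21 whose mean over all arrays exceeded that of the median gene (47.6%, where 30.4% of all genes above the median were called), and 0 of the other 31 were called (5.81% of all genes at or below the median). Of these 31, 9 had an unadjusted p under 0.05 from limma, beside 1818 of the 12487 genes at or below the median. The single-gene test of the methods section called 0 of the 31 after adjustment, where it called 10.1% of genes of all levels. Its share among genes at or below the median was not computed. In bulk samples, fewer cells of a type and less RNA per cell cannot be told apart.

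**Figure D1:**
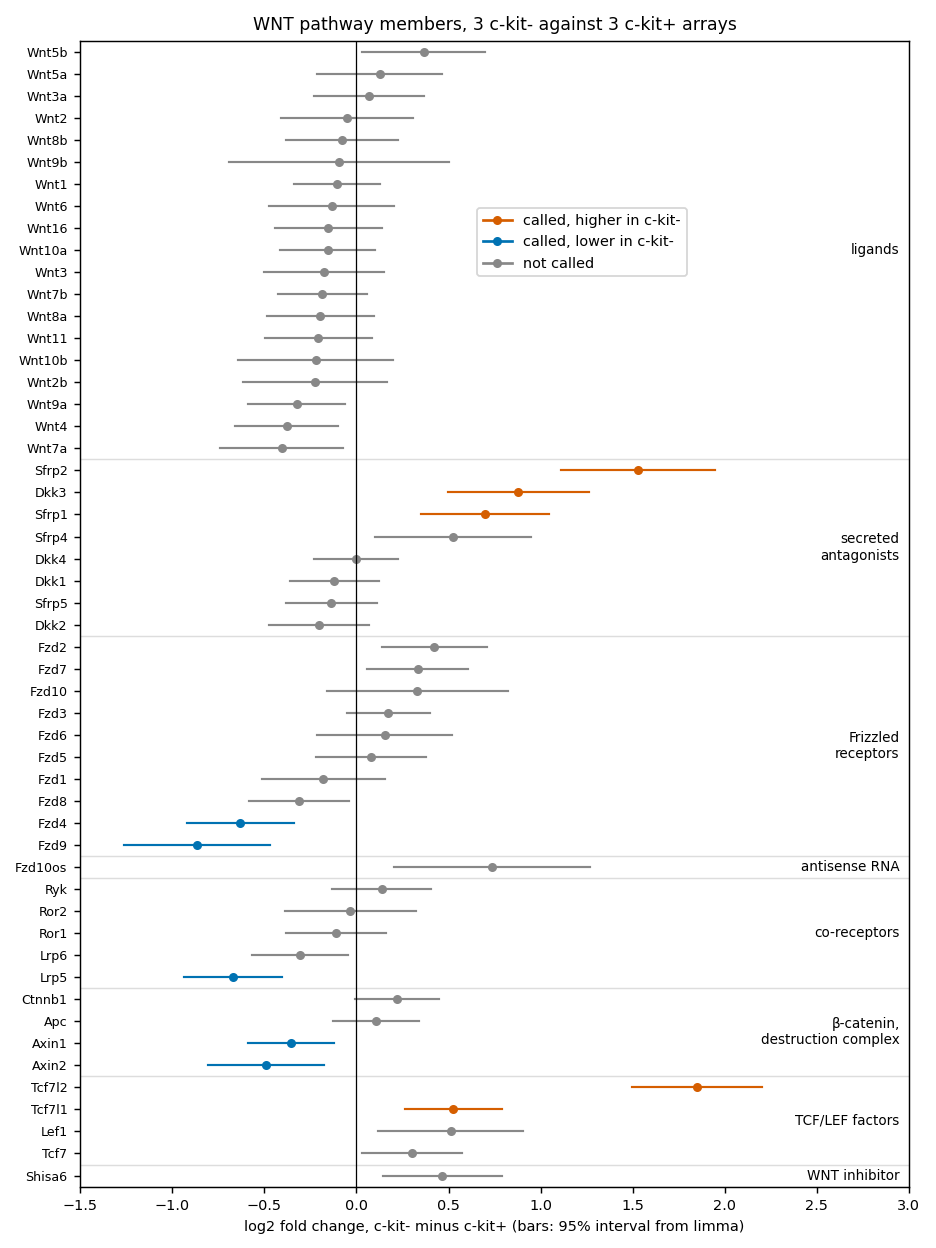
Log2 fold change, c-kit- minus c-kit+, of all 52 members by role, with 95% intervals from limma (3 arrays each). The 5 members called higher and the 5 called lower are coloured; Tcf7l2 at 1.85 and Sfrp2 at 1.53 lie farthest to the right and Fzd9 at -0.87 farthest to the left, and all ligand points lie between -0.41 and 0.37.

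Promoter sequence is shown for 3 of the called members: Tcf7l2 and Sfrp2, which had the greatest fold changes, and Axin2, the pathway's usual target gene. Each is the 250 bases before an annotated start, 5′ to 3′ on the gene's strand, from RefSeq on GRCm38.p6: chr19:55741560-55741809 (plus strand) for the more upstream of the Tcf7l2 starts, chr3:83766071-83766320 (plus) for Sfrp2 and chr11:108920099-108920348 (plus) for Axin2. Capitals mark CTTTG or its reverse complement CAAAG, the core of the site bound by TCF/LEF factors.
Tcf7l2: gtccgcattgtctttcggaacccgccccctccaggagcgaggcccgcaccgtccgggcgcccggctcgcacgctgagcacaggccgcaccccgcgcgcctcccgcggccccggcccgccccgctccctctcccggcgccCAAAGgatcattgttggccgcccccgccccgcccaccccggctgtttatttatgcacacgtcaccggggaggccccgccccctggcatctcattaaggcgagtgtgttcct
Sfrp2: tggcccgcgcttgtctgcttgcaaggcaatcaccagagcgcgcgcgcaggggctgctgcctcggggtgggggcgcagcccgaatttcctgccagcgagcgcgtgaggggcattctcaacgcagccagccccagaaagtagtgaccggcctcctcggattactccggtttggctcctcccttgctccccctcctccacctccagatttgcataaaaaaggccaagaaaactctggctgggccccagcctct
Axin2: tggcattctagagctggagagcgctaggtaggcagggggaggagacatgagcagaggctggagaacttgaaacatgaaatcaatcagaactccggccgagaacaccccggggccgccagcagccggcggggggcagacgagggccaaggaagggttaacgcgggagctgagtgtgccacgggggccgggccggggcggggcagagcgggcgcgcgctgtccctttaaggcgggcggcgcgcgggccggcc

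The core stood once in the Tcf7l2 stretch and not in the other 2. Over windows of 300 bases (250 before the start and 50 after), 34 of the 52 members had 43 windows, and 22 of these (51.2%) held the core on either strand, against 53.9% of all 32851 windows. The longer motif CTTTGAT, which contains the core, was in 2 member windows (4.65%), those of Wnt11 and Wnt5b, against 3.73% of all windows, and in 0 of the 7 windows of 6 called members. A match is only a run of letters, and no match says only that these letters are not in this window.

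Among the TCF/LEF factors, all 4 genes had higher means in c-kit- cells under each scaling tried, and 2 passed the test. In the deposited values the groups did not overlap for any of the 4. Tcf7l2 encodes TCF4, a factor that activates or represses β-catenin target genes. It was at 7.85, 8.19 and 8.26 on the c-kit- arrays, against 6.26, 6.03 and 6.46 on the c-kit+ arrays. Every c-kit- array was more than a log2 unit above every c-kit+ array. The means were 8.10 ± 0.22 and 6.25 ± 0.21 (SD, n = 3 each), a 3.60-fold higher level in the c-kit- population (log2 fold change 1.85, SE 0.15, adjusted p = 0.000173 from limma). With any 1 array left out the adjusted p stayed at or below 0.00159, and against c-kit+ replicate 3 alone the log2 fold change was 1.64 (adjusted p = 0.0239 from limma, with no spread from the c-kit+ group). Tcf7l1 encodes TCF3, the member known mainly as a repressor. It was at 7.77, 7.56 and 7.66 in c-kit- cells, against 7.28, 7.10 and 7.04 in c-kit+ cells, a narrow gap with little spread within either group. Its log2 fold change was 0.53 (SE 0.12, adjusted p = 0.0151 from limma). It did not pass without c-kit+ replicate 2 (0.0534) or with c-kit+ replicate 3 left out (0.0630), and against c-kit+ replicate 3 alone its log2 fold change was 0.63 (0.134).

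The other two factors, LEF1 and TCF7, are activators in many tissues. Lef1 was at 6.48, 6.97 and 6.97 in c-kit- cells, against 6.47, 6.05 and 6.36 in c-kit+ cells. The lowest c-kit- array, replicate 1, was level with the highest c-kit+ array, also replicate 1. The log2 fold change was 0.51 (95% interval 0.12 to 0.91, adjusted p = 0.0777 from limma), and Lef1 passed without c-kit- replicate 1 (0.0226), with array weights (0.0393) and when only genes above the median were tested (0.0473). Tcf7 was at 10.29, 10.46 and 10.46 in c-kit- cells, against 10.16, 9.93 and 10.21 in c-kit+ cells, above the upper quartile of all genes on the arrays. The means were 10.40 ± 0.10 and 10.10 ± 0.15 (SD, n = 3 each). Tcf7 was not called (log2 fold change 0.30, 95% interval 0.03 to 0.57, adjusted p = 0.124 from limma), and with a mean-dependent variance it passed (0.0480). For Tcf7l2, Lef1 and Tcf7 the c-kit- replicate 1 array was the lowest of its group and the c-kit+ replicate 2 array the lowest of the other.

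**Figure D2:**
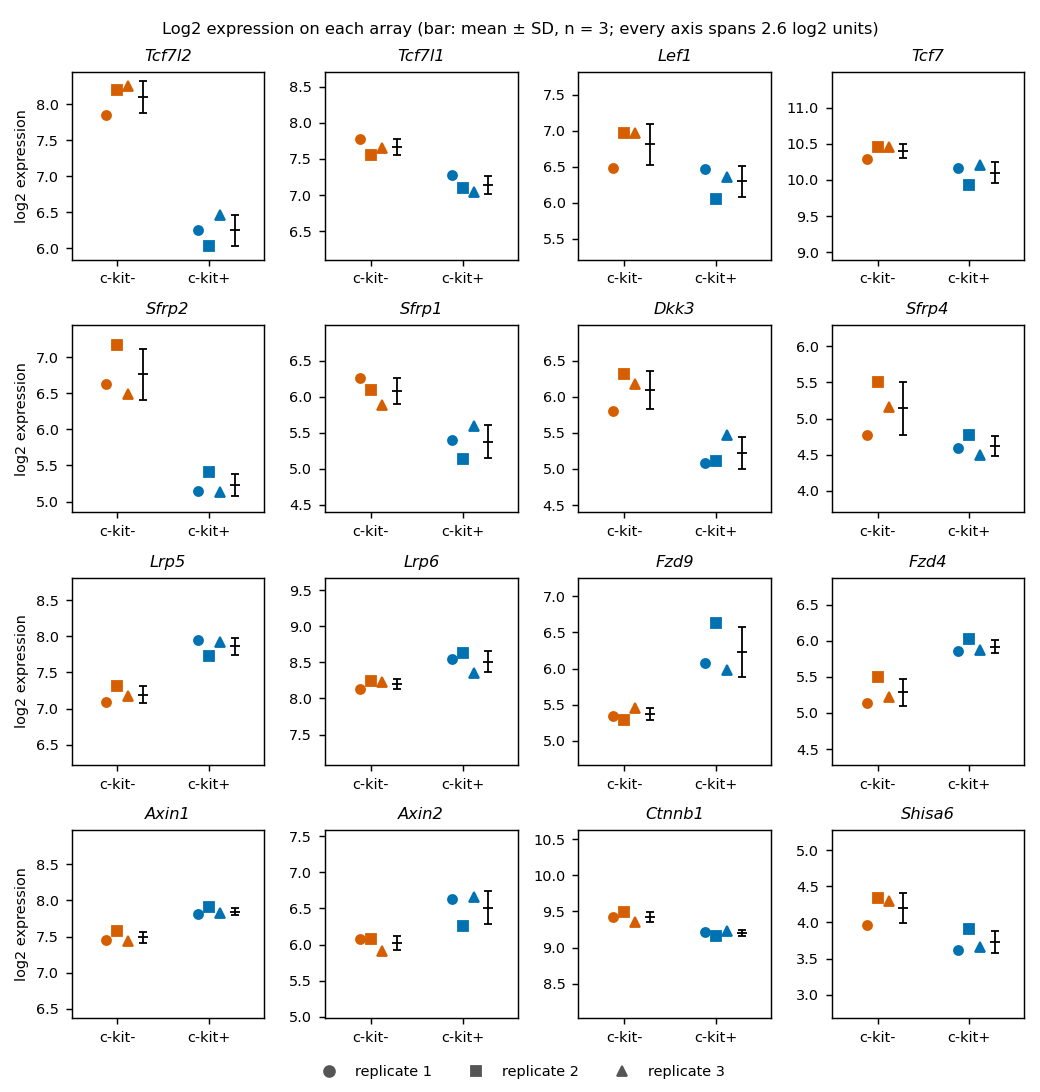
Log2 expression on each array for 16 members, c-kit- left and c-kit+ right, with markers for replicates 1 to 3 and bars for the mean ± SD (n = 3); every axis spans the same range. The groups lie far apart for Tcf7l2 and Sfrp2, close together for Axin1 and Tcf7, and overlap for Sfrp4.

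Of the 8 secreted antagonists, 3 were higher in c-kit- cells and none was lower. Sfrp2, a soluble protein with a Frizzled-like domain, was at 6.63, 7.16 and 6.48 in c-kit- cells, against 5.15, 5.41 and 5.14 in c-kit+ cells. In both groups replicate 2 was the highest, and the groups were far apart. The means were 6.76 ± 0.36 and 5.23 ± 0.15 (SD, n = 3 each), or 2.89-fold higher in the c-kit- population (log2 fold change 1.53, SE 0.18, adjusted p = 0.0009 from limma). The adjusted p stayed at or below 0.00602 with any 1 array left out, and against c-kit+ replicate 3 alone the log2 fold change was 1.62 (0.0473). Its relative Sfrp1 was at 6.25, 6.09 and 5.88 in c-kit- cells, against 5.40, 5.14 and 5.60 in c-kit+ cells. These ranges are separate but near each other (log2 fold change 0.70, SE 0.15, adjusted p = 0.0140 from limma). Dkk3, a divergent Dickkopf protein that, unlike DKK1, is not known to bind LRP5 and LRP6, was at 5.80, 6.31 and 6.17 in c-kit- cells, against 5.08, 5.11 and 5.47 in c-kit+ cells. The log2 fold change was 0.88 (SE 0.17, adjusted p = 0.00768 from limma). Sfrp1 and Dkk3 passed with each single array left out. Against c-kit+ replicate 3 alone, where the c-kit+ group gives no spread, their log2 fold changes were 0.48 and 0.63 (adjusted p = 0.296 and 0.251 from limma).

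Sfrp4 was at 4.77, 5.51 and 5.16 in c-kit- cells, against 4.59, 4.77 and 4.49 in c-kit+ cells, so that the lowest c-kit- array lay below the highest c-kit+ array. It was not called (log2 fold change 0.52, adjusted p = 0.0916 from limma), and passed without c-kit- replicate 1 (0.0195), with array weights and with the replicate block (0.0461). The remaining Sfrp5, Dkk1, Dkk2 and Dkk4 had log2 fold changes between -0.20 and 0.00, and the sign of Dkk4 changed with the scaling. Of the endothelial list, 4 of 8 markers were called higher in c-kit- cells, the direction of the called antagonists. Tie1 (log2 fold change -0.23) and Egfl7 (-0.26) on that list had lower means. Of the Sertoli list 1 of 12 genes, Trf, was called higher (0.91), and the median log2 fold change of the list was -0.08. The part of endothelial and Sertoli cells in these results was not tested.

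Of the 10 Frizzled receptors, 2 were lower in c-kit- cells and none was higher, although 6 had higher means. Fzd9 was at 5.34, 5.29 and 5.46 in c-kit- cells, against 6.08, 6.63 and 5.98 in c-kit+ cells. The c-kit- arrays lay close together, and c-kit+ replicate 2 was well above its group. The log2 fold change was -0.87 (SE 0.17, adjusted p = 0.00948 from limma), so Fzd9 was 1.82-fold higher in c-kit+ cells. Fzd4, which also serves as the receptor of norrin, was at 5.13, 5.50 and 5.23 in c-kit- cells, against 5.86, 6.02 and 5.87 in c-kit+ cells. Replicate 2 was the highest of both groups, and the log2 fold change was -0.63 (SE 0.13, adjusted p = 0.0101 from limma). Both passed with each array left out in turn, at adjusted p up to 0.0342 and 0.0414. Against c-kit+ replicate 3 alone their log2 fold changes were -0.62 and -0.59 (0.128 and 0.212). Fzd2 stood just beyond the threshold, at 3.76, 3.88 and 3.94 in c-kit- cells and 3.25, 3.61 and 3.47 in c-kit+ cells (log2 fold change 0.42, adjusted p = 0.0501 from limma). It passed without c-kit+ replicate 2 (0.0471), under the 3 other scalings, with a mean-dependent variance, with array weights and with the replicate block (0.0480). Fzd8 was not called (log2 fold change -0.31, adjusted p = 0.112 from limma) and passed without c-kit- replicate 1 (0.0376). Fzd3, which has known roles in planar cell polarity and is above the upper quartile of genes here, was 8.24 ± 0.06 in c-kit- cells against 8.07 ± 0.04 in c-kit+ cells (SD, n = 3 each), a log2 fold change of 0.17 (adjusted p = 0.295 from limma). The antisense transcript Fzd10os was at 6.16, 5.42 and 5.40 in c-kit- cells, against 4.64, 5.24 and 4.89 in c-kit+ cells (log2 fold change 0.74, adjusted p = 0.0631 from limma), and passed with cyclic loess.

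Of the 5 co-receptors, 1 passed. Lrp5 was at 7.09, 7.32 and 7.18 in c-kit- cells, against 7.94, 7.73 and 7.92 in c-kit+ cells. Its log2 fold change was -0.67 (SE 0.12, adjusted p = 0.00503 from limma), and the adjusted p stayed at or below 0.0248 with any array left out, and against c-kit+ replicate 3 alone the log2 fold change was -0.72 (0.0989). Its paralog Lrp6 was at 8.12, 8.25 and 8.23 in c-kit- cells, against 8.55, 8.63 and 8.35 in c-kit+ cells. The groups did not overlap, but Lrp6 was not called (log2 fold change -0.31, 95% interval -0.57 to -0.05, adjusted p = 0.106 from limma). Ryk, a receptor with an inactive kinase domain, was 9.43 ± 0.14 in c-kit- cells against 9.30 ± 0.10 in c-kit+ cells (adjusted p = 0.499 from limma, n = 3 each). The receptor tyrosine kinases Ror1 and Ror2 had log2 fold changes of -0.11 and -0.03, and the sign of Ror2 changed with cyclic loess. The peritubular myoid and Leydig lists, whose means above lay lower on every c-kit- array, moved the same way as Fzd9, Fzd4 and Lrp5. The leukocyte means overlapped between the groups at c-kit+ replicate 3. The part of these cells in the calls was not tested.

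β-catenin itself, Ctnnb1, was at 9.43, 9.49 and 9.35 in c-kit- cells, against 9.21, 9.16 and 9.23 in c-kit+ cells. Every c-kit- array was above every c-kit+ array, by little (log2 fold change 0.22, 95% interval -0.01 to 0.45, adjusted p = 0.180 from limma). The destruction complex scaffold Apc was 8.24 ± 0.08 in c-kit- cells against 8.14 ± 0.04 in c-kit+ cells (SD, n = 3 each, adjusted p = 0.558 from limma). Both AXIN genes were lower in c-kit- cells. Axin2 was at 6.07, 6.08 and 5.91 in c-kit- cells, against 6.63, 6.25 and 6.65 in c-kit+ cells, where replicate 2 lay nearest the c-kit- arrays. Its log2 fold change was -0.49 (SE 0.14, adjusted p = 0.0405 from limma). Axin1, the constitutive scaffold, was at 7.45, 7.57 and 7.44 in c-kit- cells, against 7.81, 7.90 and 7.82 in c-kit+ cells, with a log2 fold change of -0.36 (SE 0.10, adjusted p = 0.0435 from limma). Axin1 did not pass whichever of the 6 arrays was left out (0.0629 to 0.127), although its log2 fold change stayed between -0.40 and -0.33. With single arrays left out, Axin2 passed without c-kit+ replicate 2 (0.0166) and not without c-kit- replicates 1, 2 or 3 or c-kit+ replicates 1 or 3 (0.0679 to 0.136), with log2 fold changes between -0.62 and -0.42 over the 6 fits. Against c-kit+ replicate 3 alone, the log2 fold changes were -0.33 for Axin1 (0.382) and -0.63 for Axin2 (0.126). Neither passed with equal medians (0.0543 for Axin1, 0.0578 for Axin2), with cyclic loess (0.0507 and 0.0518) or with the replicate number as a block (0.0706 and 0.0536).

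Shisa6 was near the threshold. It was at 3.96, 4.33 and 4.30 in c-kit- cells, against 3.62, 3.91 and 3.67 in c-kit+ cells, with its lowest c-kit- array just above its highest c-kit+ array. The means were 4.20 ± 0.21 and 3.73 ± 0.15 (SD, n = 3 each), a log2 fold change of 0.47 (95% interval 0.15 to 0.79, adjusted p = 0.0532 from limma). It passed with equal medians (0.0440), with a further quantile normalization (0.0319), with cyclic loess (0.0319), array weights (0.0207), the replicate block (0.0364) and without c-kit- replicate 1 (0.0221). Its values were low among all genes on the arrays (median gene mean 5.31), and the arrays hold no call of whether it was detected.

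**Figure D3:**
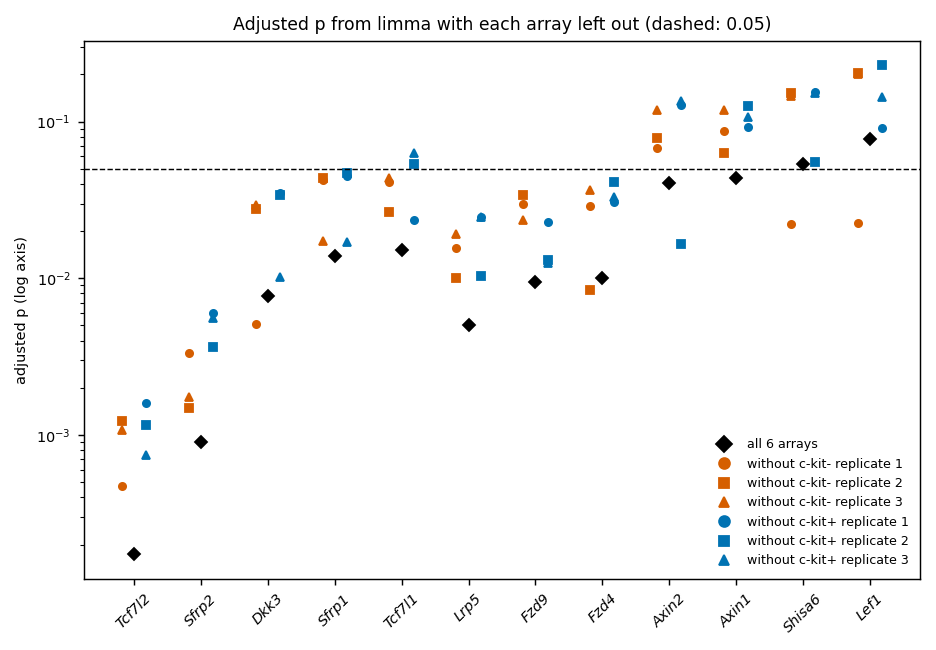
Adjusted p from limma (log axis) for 12 members with all 6 arrays (diamonds) and with each array left out, c-kit- left and c-kit+ right of the diamond; the dashed line is at 0.05. Tcf7l2 and Sfrp2 stay at or below 0.00602 in every case, while Axin1 crosses the line whichever array is left out, and Axin2 for each array but c-kit+ replicate 2.

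No WNT ligand gene passed. Of the 19, 4 had an unadjusted p under 0.05 from limma, beside 7477 of all 24973 genes and 1818 of the 12487 at or below the median gene. The methods' single-gene test called 0 of the 19 after adjustment, where it called 10.1% of genes of all levels. That share was not computed for genes as low as most ligands. Of the 19 ligand means, 16 were lower in c-kit- cells and 3 higher, under each of the 3 other scalings of the same arrays as well. Means were also lower for 14086 of all 24973 genes, and for 7536 of the 12487 at or below the median gene. The median log2 fold change of the ligands was -0.16, beside -0.04 over all genes, and their range was -0.41 to 0.37. All but 1, Wnt5b, had a mean at or below that of the median gene, where the arrays give no detection call. Wnt4, made by many embryonic and somatic tissues, was at 4.70, 4.68 and 4.78 in c-kit- cells, against 4.93, 5.29 and 5.08 in c-kit+ cells (log2 fold change -0.38, adjusted p = 0.0676 from limma). Wnt7a had a log2 fold change of -0.41 (adjusted p = 0.0969 from limma), and Wnt5b, a ligand of β-catenin-independent signalling, one of 0.37 (adjusted p = 0.131 from limma). Wnt6, the Sertoli cell ligand, was 4.79 ± 0.25 in c-kit- cells against 4.93 ± 0.14 in c-kit+ cells (adjusted p = 0.617 from limma, n = 3 each), overlapping between the groups. Among the c-kit+ arrays, replicate 2 was the highest for 12 of the 19 ligands and replicate 1 the lowest for 11. Over all 52 members these counts were 29 and 22, so the order is not particular to the ligands. The median over all genes was also highest on c-kit+ replicate 2 (5.33) and lowest on replicate 1 (5.25) of that group. Wnt9b, at 4.80, 5.95 and 5.09 in c-kit+ cells, was the widest of the ligands.

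**Figure D4:**
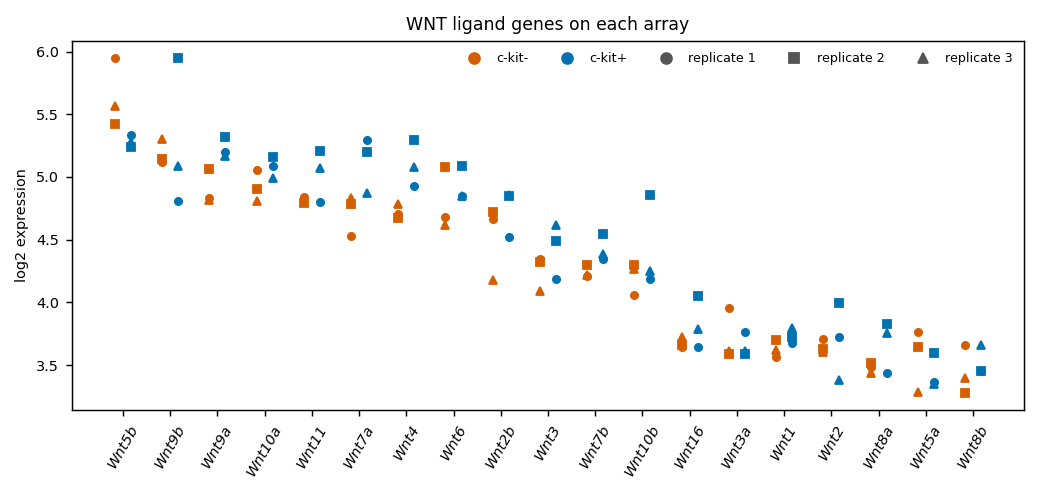
Log2 expression of the 19 WNT ligand genes on each array, c-kit- left and c-kit+ right within each gene, ordered by mean level, with marker shapes for replicates. No ligand was called, and c-kit+ replicate 2 lies highest of its group in 12 of the 19 (and in 29 of all 52 members).

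Other genes of the pathway, on 6 lists, were also measured. Of 114 such genes, 25 were called (21.9%, beside 18.1% of all genes), 16 higher and 9 lower, and their median log2 fold change was -0.01. Above the median gene lay 71 of the 114, and 30.4% of all genes above it were called, beside 5.81% at or below it. The share called is therefore not a result about these genes as a set. Against c-kit+ replicate 3 alone, with the spread taken from the c-kit- arrays, 3 of them passed, Rspo2 (adjusted p = 0.00824 from limma), Daam1 (0.0376) and T (0.0466). Among regulators of secretion and the cell surface, Rspo2, a secreted R-spondin that raises the amount of WNT receptors at the surface, was at 7.29, 7.44 and 7.32 in c-kit- cells, against 5.15, 5.03 and 5.10 in c-kit+ cells. It was the largest fold change of the lists, at 2.26 (4.79-fold, adjusted p = 1.63e-05 from limma). Rspo1 was 0.46 higher (adjusted p = 0.0142 from limma), and lost its call with c-kit- replicate 2 or c-kit+ replicate 2 left out (0.0514 in both cases). The glypican gene Gpc4 was at 7.31, 6.73 and 6.71 in c-kit- cells, replicate 1 standing above the others, against 5.58, 5.46 and 5.39 in c-kit+ cells, 1.43 higher (adjusted p = 0.000892 from limma). The R-spondin receptor Lgr4 moved the other way, at 5.89, 5.87 and 6.07 in c-kit- cells, against 7.04, 7.11 and 6.86 in c-kit+ cells, with a log2 fold change of -1.06 (adjusted p = 0.000588 from limma).

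In the cytoplasm, Dvl1, a Dishevelled gene that relays the receptor signal, was lower in c-kit- cells (log2 fold change -0.86, adjusted p = 0.00146 from limma). Gsk3a, a kinase that phosphorylates β-catenin, was also lower (-0.50). It passed only without c-kit- replicate 1 among the arrays left out in turn (adjusted p up to 0.139 from limma without the others). Their paralogs Dvl2 (0.30), Dvl3 (0.01) and Gsk3b (0.26) had higher means in c-kit- cells and were not called. The ubiquitin ligase gene Fbxw11 (0.53) and the tankyrase gene Tnks2 (0.49), whose product directs AXIN to degradation, were higher in c-kit- cells. Tnks2 lost its call without c-kit- replicates 2 or 3 or c-kit+ replicate 1 (0.0536 to 0.0649). Of the 26 genes on this list, 2 were higher and 2 lower (15.4% called, beside 18.1% of all genes and 30.4% of those above the median gene). Above the median gene lay 22 of the 26.

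Of 21 nuclear partners of β-catenin, 4 were higher in c-kit- cells and 2 lower. All 21 lay above the median gene, and 28.6% were called, beside 30.4% of all genes above it. Ruvbl2, a helicase gene, was 0.95 higher on the log2 scale, Hbp1, a repressor of WNT targets, 0.67 and Ruvbl1 0.53. The corepressors split, with Tle4 0.38 higher and Tle2 at -0.46, and Cdc73 was at -0.51. Ruvbl1, Tle4, Tle2 and Cdc73 each lost the call when some single array was left out (Ruvbl1 without c-kit- 2 or 3 or c-kit+ 1 or 2, at 0.0581 to 0.0693; Tle4 without any array but c-kit- 1, at up to 0.130; Tle2 without c-kit- 3 or c-kit+ 2 or 3, at up to 0.0717; Cdc73 without c-kit- 2 or c-kit+ 1, at up to 0.0580).

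The 18 target and feedback genes held 2 that were higher and 4 that were lower in c-kit- cells. The share called was 33.3%, beside 18.1% of all genes, with 7 of the 18 above the median gene. Ccnd1, the cyclin D1 gene often used as a target, was at 7.60, 8.21 and 8.03 in c-kit- cells, against 9.05, 8.84 and 9.24 in c-kit+ cells, 1.10 lower (2.14-fold higher in c-kit+ cells, adjusted p = 0.00361 from limma). The feedback inhibitor genes Nkd2 (-0.86) and Notum (-0.58) and the transcription factor Ascl2 (-0.55) were also lower. The T-box factor T was at 5.60, 5.66 and 5.20 in c-kit- cells, against 4.04, 3.90 and 4.17 in c-kit+ cells, 1.45 higher (adjusted p = 0.000434 from limma), and Bambi, which encodes a pseudoreceptor for TGF-β family ligands, was 0.75 higher. T, Ccnd1 and Bambi kept their calls with each array left out, while Nkd2 lost it without c-kit+ replicates 1 or 2 (up to 0.0571), Notum without c-kit- replicates 1 or 3 or c-kit+ replicates 1 or 2 (up to 0.0750) and Ascl2 without c-kit- replicates 1 or 3 or c-kit+ replicates 2 or 3 (up to 0.0738).

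In the planar cell polarity list, 4 of 17 were higher in the c-kit- population and none was lower. The share called was 23.5%, beside 18.1% of all genes, with 8 of the 17 above the median gene. Daam1, a formin gene acting downstream of Dishevelled, was 0.97 higher (adjusted p = 0.000503 from limma), Prickle1 0.82, the receptor-like gene Ptk7 0.63 and Wdpcp 0.56. Wdpcp passed only without c-kit- replicate 3 when single arrays were left out (elsewhere 0.0665 to 0.0887). Of the 7 other Shisa genes, Shisa5 alone was called (14.3%, beside 18.1% of all genes), at 0.46 higher. When single arrays were left out, Shisa5 kept its call only without c-kit- replicate 1 (elsewhere 0.0559 to 0.0752).

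**Figure D5:**
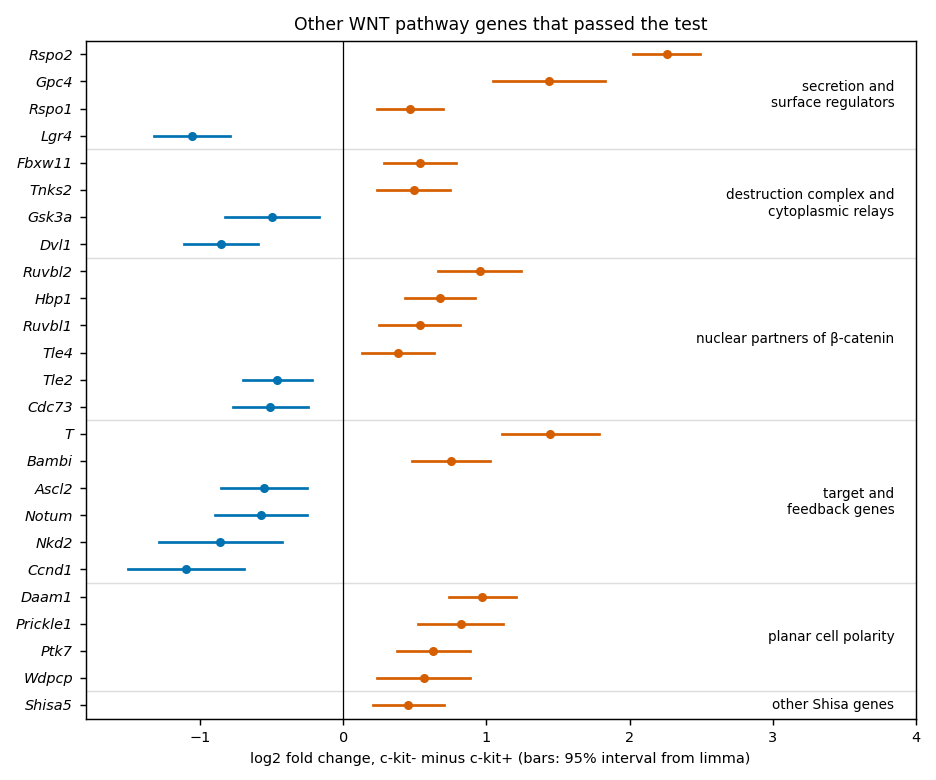
Log2 fold change, c-kit- minus c-kit+, of the 25 other WNT pathway genes that passed, by list, with 95% intervals from limma (3 arrays each). Rspo2 at 2.26 and Lgr4 at -1.06, a ligand and a receptor of one arm of the pathway, lie on opposite sides of 0.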

How the data were processed

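The deposited log2 values were made by the authors with RMA, which subtracts background, quantile-normalizes the arrays and summarizes the probes of each gene. The version and probe sets are not given in the sources used here. Nothing further was done to them. Gene IDs were matched to a RefSeq gene table (24481) or the platform table (93), and 399 stayed unnamed. The fit used lmFit and eBayes of limma 3.58.1 (R 4.3.3) on all 24973 genes, with Benjamini-Hochberg adjustment over all genes, and the procedure was tested on simulated data. The p-values measure only the spread between the samples in each fit, 3 per group with all arrays. In limma the spread of each gene is drawn toward a value shared by all genes (4.285 prior degrees of freedom with all arrays). The methods' per-gene test uses the spread of each gene alone. With c-kit+ replicates 1 and 2 left out the c-kit+ group gives no spread. The smallest p of a two-sided exact permutation test is 0.1. Every called member was named, with uncalled ones above the upper quartile of levels or over 0.8 in log2 fold change, a few regulators in any case and up to 4 called genes per list and direction. Other members were added after their values were seen, some by their closeness to the threshold and some not close to it. Fzd7 (log2 fold change 0.33, adjusted p = 0.0982 from limma) and Wnt9a (-0.32, 0.0929) were closer than some of those added. Members and lists were chosen with earlier results of these data known. Alternatives covered scaling, filters, the methods' per-gene test, limma settings, a replicate block and arrays left out.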

Additional observations from a re-analysis of the deposited data

How the results depend on the processing

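All 10 called members kept their direction under every alternative. The count of members higher in c-kit- cells, 5, became 8 with cyclic loess, 9 with array weights, 2 with the per-gene test of the study's methods and 2 without c-kit+ replicates 1 and 2, and ranged from 4 to 8 with single arrays left out. The count lower, 5, became 3 with equal medians, 3 with cyclic loess, 2 with the methods' test, 0 without c-kit+ replicates 1 and 2 (where 1 c-kit+ array remains and 3.07% of all genes were called) and 3 at a fold over 1.5 with an unadjusted p under 0.02, and ranged from 3 to 4 with single arrays left out. Other pathway genes higher, 16, became 3 without those 2 arrays and 10 at the fold and p above, and ranged from 10 to 18 with single arrays left out. Those lower, 9, became 5 with the methods' test, 0 without those arrays and 5 at the fold and p above, against 13 with the replicate block, 11 with array weights and 10 both with a mean-dependent variance and among genes above the median, and ranged from 4 to 9 with single arrays left out. Under the methods' test with Benjamini-Hochberg adjustment, Tcf7l2, Sfrp2, Lrp5 and Axin1 remained called. Dkk3, Sfrp1, Tcf7l1, Fzd9, Fzd4 and Axin2 did not (adjusted p = 0.0513 to 0.127 over these 6). The paper's mouse lists used a fold over 1.5 and p under 0.02 instead, and the counts above at those values took p from limma. By the methods' test, p before adjustment was 0.00662 for Fzd4, 0.0112 for Dkk3, 0.0138 for Fzd9 and 0.01455 for Sfrp1, each over 1.5-fold. Axin1, at 1.28-fold, was under that fold. Same-numbered samples correlated at 0.0999, 0.0973 and 0.137 in their deviations from the group means, and each array correlated best with its own number, a hint from the data and not the design; with the replicate number as a block, 8 members were higher and 3 lower. The cause of these changes was not tested. The values hold no detection call, so for members with low values, most ligands among them, these arrays do not show whether a transcript was detected.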
